A study of Mus musculus with 7 samples.

Results

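The 10 genes described here form the core of the circadian clock: the activators Arntl, Clock and Npas2, the repressors Per1, Per2, Per3, Cry1 and Cry2, the nuclear receptor Nr1d1 and the output factor Dbp. They were chosen by name, for their place in the clock, from the 24346 genes of the table. All 10 were found there, and all 10 were expressed strongly enough to be tested, among 12988 tested genes. Their RNA was measured by bulk RNA-seq in the cerebral cortex of 7 male mice at postnatal day 100, 4 of them CrT-/y (Slc6a8 KO) and 3 CrT+/y (WT), all on a C57BL/6J background. CrT-/y males lack part of Slc6a8, the X-linked gene of the creatine transporter, in every cell of the body, and the CrT+/y males came from the same litters. Each animal gave 1 library and is named by its genotype and the number in its label, 0 to 3 for CrT-/y and 1 to 3 for CrT+/y. Per the study's methods, the mice lived in a light/dark cycle and were all killed within one late-morning window of the light phase, to keep time of day from entering the comparison. The hour of each animal within that window is not given in the sources used here.

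In the clock, ARNTL (also called BMAL1) pairs with CLOCK or its close relative NPAS2, binds E-boxes in DNA and switches on the Per, Cry, Nr1d1 and Dbp genes. PER and CRY proteins then enter the nucleus and block the pair, NR1D1 (REV-ERBα) represses Arntl in a second loop, and DBP drives further genes through D-boxes. As a result, the E-box targets and Arntl reach their peaks at opposite parts of the day, in the suprachiasmatic nucleus and also in cortex and most other tissues, and Per1 and Per2 respond in addition to light, neuronal activity and hormones.

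Genotype left the 10 genes without a call. The comparison asks whether losing the creatine transporter shifts the cortical clock at this time of day. The fitted log2 fold changes ran from -0.26 for Arntl to 0.34 for Dbp, with the 3 activators below 0 and both Nr1d1 and Dbp above it. No member passed an adjusted p-value of 0.1 in limma, which models each gene's log2(FPKM + 0.1) on genotype. FPKM are fragments scaled to transcript length and mapped reads, so levels can be compared between genes. Thus 0 of 10 members were called, against 10.1% of all tested genes (2.90% higher and 7.25% lower), and 1 of 10, Clock, had an unadjusted p under 0.05, against 25.0% of all. Of the genes called over the whole table, 28.6% were higher in CrT-/y, a share of 46.8% to 61.5% under the other scalings tried. The median log2 fold change was -0.05 over the members and -0.03 over all tested genes, and 5 members lay above 0 and 5 below (58.2% of all tested genes lay below). The members did differ between animals of one genotype. CrT-/y animals 1 and 2 had the 2 highest values of the 4 CrT-/y animals in all 7 E-box-driven or output members and the 2 lowest values in all 3 activators.

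**Figure D1:**
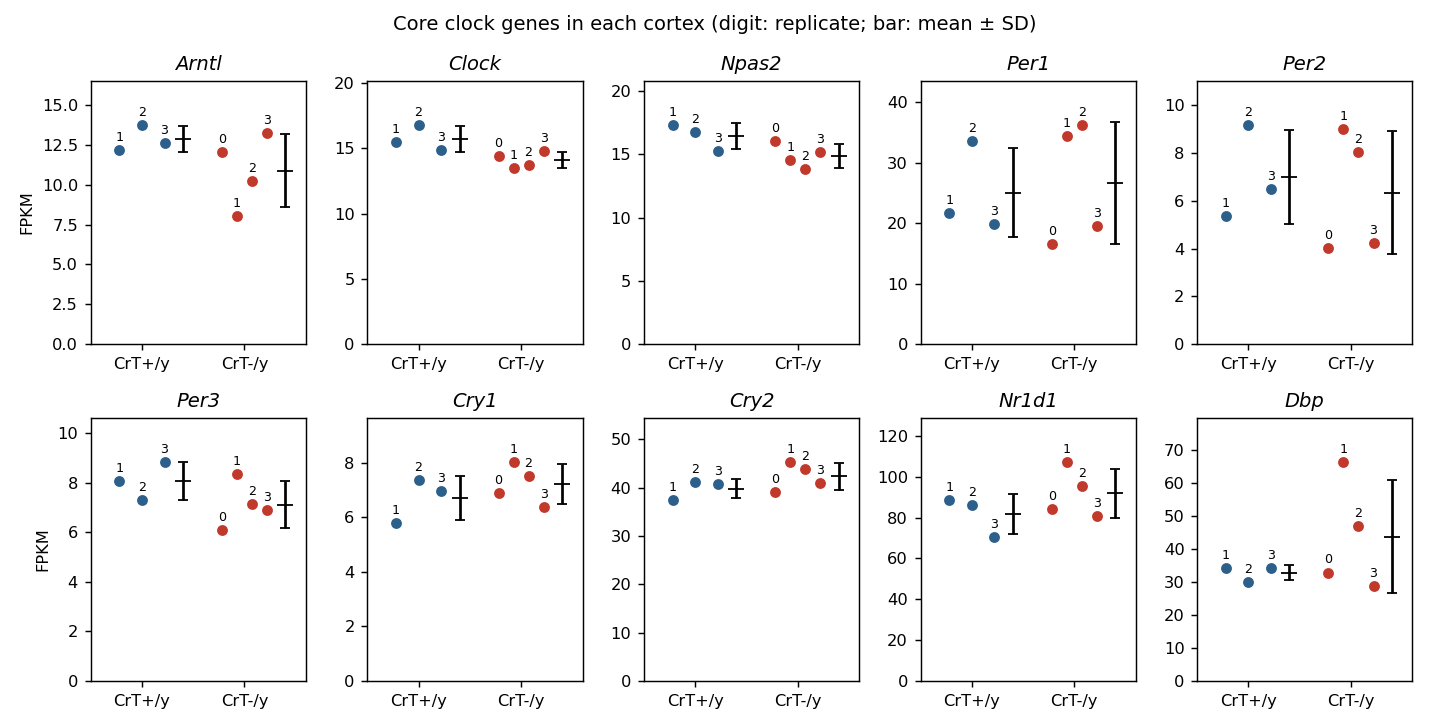
FPKM of each core clock gene (vertical axis, from 0) in every animal, CrT+/y in blue and CrT-/y in red, with the replicate number beside each point and the mean ± SD of each genotype as a black bar. CrT-/y animals 1 and 2 lie at the bottom of the red points for Arntl, Clock and Npas2 and at the top for the other 7 genes.

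The targeted gene checks the labels. Slc6a8 (chrX:73673150-73682502, GRCm38) had 12.4, 14.9, 14.7 and 15.7 FPKM in CrT-/y animals 0 to 3 and 32.3, 29.6 and 28.0 FPKM in CrT+/y animals 1 to 3. The groups did not overlap, and the log2 fold change was -1.05 (SE 0.0871, adjusted p = 0.00238). Across the table, the number of genes above 0 FPKM was 17207 to 17821 per animal, and the depth of the libraries relative to CrT-/y animal 0, estimated from weak genes, was 0.877 to 1.25. The deposited values carry no counts, so the absolute depth behind each value is unknown here. Markers of cortical excitatory neurons were high in every animal (Slc17a7 at 542 to 647 FPKM in 6 animals and 670.0 FPKM in CrT+/y animal 1), whereas 3 of 5 listed markers of the suprachiasmatic nucleus and hypothalamus, Six6, Nms and Lhx1, reached at most 0.0788 FPKM. Of the other two, Rgs16 was at 3.58 to 4.82 FPKM in all 7 animals, and Avp was at 1.12 and 1.43 FPKM in CrT+/y animals 1 and 2 and at most 0.435 FPKM in the others. Choroid plexus RNA stood out in CrT+/y animal 2 (Ttr at 379 FPKM against 0.320 to 47.9 FPKM in the other 6), and the summed striatal markers were highest in CrT-/y animals 0 and 1 and CrT+/y animal 2 (126, 145 and 135 FPKM against 32.0 to 79.2 FPKM). CrT-/y animal 1, the most extreme for several clock genes below, also had the highest level of the olfactory bulb marker Cdhr1 (9.14 FPKM against 1.02 to 3.44 FPKM in the others) and the lowest summed astrocyte markers (277 FPKM against 284 to 358 FPKM). CrT-/y animal 2 had neither, at 2.83 FPKM for Cdhr1 and 307 FPKM for the astrocyte sum. Some other markers had their lowest values of all 7 in both of these animals. The summed endothelial markers were at 40.5 and 46.1 FPKM in CrT-/y animals 1 and 2 against 52.5 to 63.1 FPKM in the others. Of the 3 markers in that sum, Cldn5 and Flt1 had animals 1 and 2 as the 2 lowest CrT-/y animals. The third, Pecam1, was lowest of all 7 in CrT-/y animal 3 (6.18 FPKM). Pvalb, a marker of interneurons, was at 20.9 and 18.0 FPKM in CrT-/y animals 1 and 2 against 30.7 to 48.9 FPKM in the others. Of 4 interneuron markers, Pvalb alone had animals 1 and 2 as the 2 lowest CrT-/y animals. Gad1 was highest of all 7 in CrT-/y animal 1 (135 FPKM). Sst was highest of all 7 in CrT-/y animal 2 (679 FPKM) and lowest in CrT-/y animal 1 (548 FPKM). The summed oligodendrocyte markers set CrT-/y animal 3 apart, at 762 FPKM against 1070 to 1405 FPKM in the others. The part of tissue composition in the results was not tested. In bulk tissue, fewer cells of a type and less RNA per cell cannot be told apart.

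The DNA elements through which the clock acts can be seen in the stretch before the starts of some of these genes. RefSeq gives promoter windows, 250 bases before to 50 after each gene start, for 9 of the 10 members (Per2 had no entry). An E-box (CACGTG, its own reverse complement) lay in the windows of Per1 and Cry1, and an E-prime box (CACGTT or, on the other strand, AACGTG) in those of Cry1, Cry2 and Nr1d1. A D-box (TTATGTAA or TTACGTAA, either strand) lay in that of Per3 alone among the members. Of all 27025 genes with a window, 8.09% held the E-box in any of their windows, 5.44% the E-prime box and 1.23% the D-box. The core of the element bound by ROR and REV-ERB receptors (AGGTCA, either strand) was in windows of Arntl, Clock and Per1 and of 18.1% of all genes. In Arntl it lay at 32, after the start. The cAMP response element (TGACGTCA) was in no member's window and in windows of 2.03% of all genes. Letters that match are a description of the window, and they show neither binding nor its absence. The 250 bases before the start are printed below from 5′ to 3′ on the gene's strand (RefSeq, GRCm38.p6) for Per1 and Cry1, the members with an E-box, for Per3, the member with D-boxes, and for Ciart, the clock gene outside the core list that differed most between animals. Capitals mark the matched elements, none of which overlaps another.
Per1, chr11:69098699-69098948, plus strand, an E-box at -166 and a receptor core at -137: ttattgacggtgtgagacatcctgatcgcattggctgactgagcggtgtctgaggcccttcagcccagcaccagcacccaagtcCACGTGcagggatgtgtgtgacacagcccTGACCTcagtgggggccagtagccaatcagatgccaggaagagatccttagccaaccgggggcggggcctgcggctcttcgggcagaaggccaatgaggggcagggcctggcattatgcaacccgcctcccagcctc
Cry1, chr10:85185055-85185304, minus strand, an E-prime box at -79 and an E-box at -60: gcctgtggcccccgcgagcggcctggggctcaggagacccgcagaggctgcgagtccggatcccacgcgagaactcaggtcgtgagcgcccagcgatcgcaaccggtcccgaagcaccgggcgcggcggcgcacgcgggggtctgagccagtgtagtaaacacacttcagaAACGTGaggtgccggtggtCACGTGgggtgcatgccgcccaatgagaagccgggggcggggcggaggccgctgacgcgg
Per3, chr4:151044666-151044915, minus strand, D-boxes at -205 and -158: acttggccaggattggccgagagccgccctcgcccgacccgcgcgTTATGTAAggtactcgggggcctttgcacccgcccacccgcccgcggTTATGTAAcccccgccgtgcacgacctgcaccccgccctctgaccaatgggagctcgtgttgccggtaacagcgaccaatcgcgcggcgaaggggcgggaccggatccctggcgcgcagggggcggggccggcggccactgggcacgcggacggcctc
Ciart, chr3:95882229-95882478, minus strand, E-boxes at -116, -58 and -44: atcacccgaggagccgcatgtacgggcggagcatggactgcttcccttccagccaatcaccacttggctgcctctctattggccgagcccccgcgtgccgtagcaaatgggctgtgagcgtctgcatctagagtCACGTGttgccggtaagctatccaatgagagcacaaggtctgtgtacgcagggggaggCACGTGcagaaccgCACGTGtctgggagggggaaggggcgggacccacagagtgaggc

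The activators came first in the comparison. Arntl (chr7:113207465-113314126, GRCm38, plus strand), the partner without which the loop does not run, had 12.1, 8.04, 10.2 and 13.2 FPKM in CrT-/y animals 0 to 3 and 12.2, 13.8 and 12.6 FPKM in CrT+/y animals 1 to 3. Animals 1 and 2 of the CrT-/y group were lower than every CrT+/y animal, while animals 0 and 3 lay close to or within the CrT+/y range. The means were 10.9 ± 2.27 FPKM (SD, n = 4) and 12.9 ± 0.802 FPKM (SD, n = 3), with a log2 fold change of -0.26 (95% interval -0.60 to 0.07, adjusted p = 0.304 in limma). Without CrT-/y animal 1 it was -0.12.

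Clock (chr5:76209868-76304792, minus strand) encodes ARNTL's usual partner, which also acetylates histones. It had 14.4, 13.5, 13.7 and 14.77 FPKM in CrT-/y animals and 15.5, 16.8 and 14.85 FPKM in CrT+/y animals. Clock was the 1 member of 10 whose groups did not overlap, with CrT-/y lower, by the small gap between CrT-/y animal 3 and CrT+/y animal 3. Groups did not overlap in 21.6% of all tested genes (15.0% lower and 6.57% higher in CrT-/y). The log2 fold change was -0.15 (SE 0.0646, 95% interval -0.30 to -0.01, unadjusted p = 0.0403 and adjusted p = 0.182 in limma), and the exact two-sided permutation p was 0.0571, where the 35 splits of the animals allow 0.0286 at the smallest.

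Npas2 (chr1:39193731-39363236, plus strand), the partner that can stand in for CLOCK and is prominent in forebrain, had 16.1, 14.6, 13.8 and 15.2 FPKM in CrT-/y animals and 17.3, 16.7 and 15.3 FPKM in CrT+/y animals. CrT-/y animal 0 alone lay inside the CrT+/y range. Npas2 differed by a log2 fold change of -0.14 (95% interval -0.30 to 0.02, adjusted p = 0.248 in limma). When CrT+/y animal 3, the lowest of its group for both Clock and Npas2, was left out, both genes were called lower in CrT-/y, with adjusted p-values of 0.0703 and 0.0904, while the genes called over the whole table rose from 1318 to 3733. The fold changes without it were -0.19 for Clock and -0.19 for Npas2.

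Among the repressors, Per1 and Per2 had the widest spread. Per1 (chr11:69095217-69109960, plus strand), the Period gene that responds fastest to light and activity, had 16.6, 34.4, 36.3 and 19.5 FPKM in CrT-/y animals and 21.7, 33.5 and 19.9 FPKM in CrT+/y animals. CrT-/y animals 1 and 2 and CrT+/y animal 2 formed a high level across both genotypes, and the other 4 lay at or below 21.7 FPKM. The log2 fold change of Per1 was 0.05 (95% interval -0.60 to 0.70, adjusted p = 0.934 in limma), a range that leaves room for a change of either sign.

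Per2 (chr1:91415982-91459324, minus strand), whose protein carries CRY into the nucleus, had 4.02, 9.01, 8.06 and 4.26 FPKM in CrT-/y animals and 5.35, 9.18 and 6.49 FPKM in CrT+/y animals. The same animals as for Per1 were the 3 highest, and CrT-/y animals 0 and 3 were the 2 lowest of all 7. Per2 had a log2 fold change of -0.20 (95% interval -0.87 to 0.48, adjusted p = 0.718 in limma). Per1 and Per2 resembled each other more than either resembled any other member, with a mean absolute difference of 0.144 between their log2 deviations over the 7 animals.

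Per3 (chr4:151003652-151044665, minus strand), the Period gene that the loop can spare, did not follow that order. Its 6.09, 8.37, 7.14 and 6.90 FPKM in CrT-/y animals stood beside 8.06, 7.32 and 8.86 FPKM in CrT+/y animals, so CrT+/y animal 2, high for Per1 and Per2, was the lowest of its group for Per3. The log2 fold change was -0.18 (95% interval -0.43 to 0.07, adjusted p = 0.328 in limma). As a result, the ratio of Per1 to Per3 FPKM ran from 2.25 to 2.83 in 4 animals and was 4.11 and 5.08 in CrT-/y animals 1 and 2 and 4.58 in CrT+/y animal 2.

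The cryptochromes, the strongest repressors of the pair, were the steadier members of the negative limb over all 7 animals. The SD of log2(FPKM + 0.1) was 0.155 for Cry1 and 0.0924 for Cry2, against 0.182 for Per3. Among the CrT+/y animals alone, Cry1 varied more than Per3 (0.177 against 0.136). Cry1 (chr10:85131700-85185064, minus strand) had 6.89, 8.04, 7.52 and 6.36 FPKM in CrT-/y animals and 5.80, 7.35 and 6.97 FPKM in CrT+/y animals, with a log2 fold change of 0.10 (95% interval -0.14 to 0.34, adjusted p = 0.582 in limma). Cry2 (chr2:92403646-92434043, minus strand) had 39.2, 45.4, 43.8 and 41.0 FPKM in CrT-/y animals and 37.5, 41.1 and 40.8 FPKM in CrT+/y animals, with a log2 fold change of 0.09 (95% interval -0.06 to 0.24, adjusted p = 0.436 in limma). Both were highest in CrT-/y animals 1 and 2. Their ratio hardly moved, with Cry2 at 5.59 to 6.47 times Cry1 in all 7 animals.

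Nr1d1 (chr11:98767932-98775333, minus strand), the repressor of Arntl, was the most abundant member, with 84.1, 107, 95.5 and 80.8 FPKM in CrT-/y animals and 88.4, 86.4 and 70.5 FPKM in CrT+/y animals. CrT-/y animals 1 and 2 lay above all CrT+/y animals and the other 2 within their range. Nr1d1 had a log2 fold change of 0.17 (95% interval -0.09 to 0.42, adjusted p = 0.380 in limma). Of its exonic bases, 8.55% are shared with Thra on the opposite strand, and for Dbp 18.0% are shared with Sphk2. Whether the counting used strand is not given in the sources used here, so some of their reads may belong to those neighbors.

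Dbp (chr7:45705088-45710203, plus strand), a direct target of the ARNTL pair known for its large daily swing, differed widely among the CrT-/y animals and little among the CrT+/y animals. It had 32.9, 66.5, 46.8 and 28.7 FPKM in CrT-/y animals and 34.1, 30.1 and 34.1 FPKM in CrT+/y animals. The highest CrT-/y animal was at 2.32 times the lowest, against 1.13 times among CrT+/y animals, and CrT-/y animal 0 lay within the CrT+/y range and animal 3 just below it. In limma, Dbp had a log2 fold change of 0.34 (95% interval -0.21 to 0.89, adjusted p = 0.412), and it was 0.11 without CrT-/y animal 1 and 0.51 without CrT-/y animal 3.

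**Figure D2:**
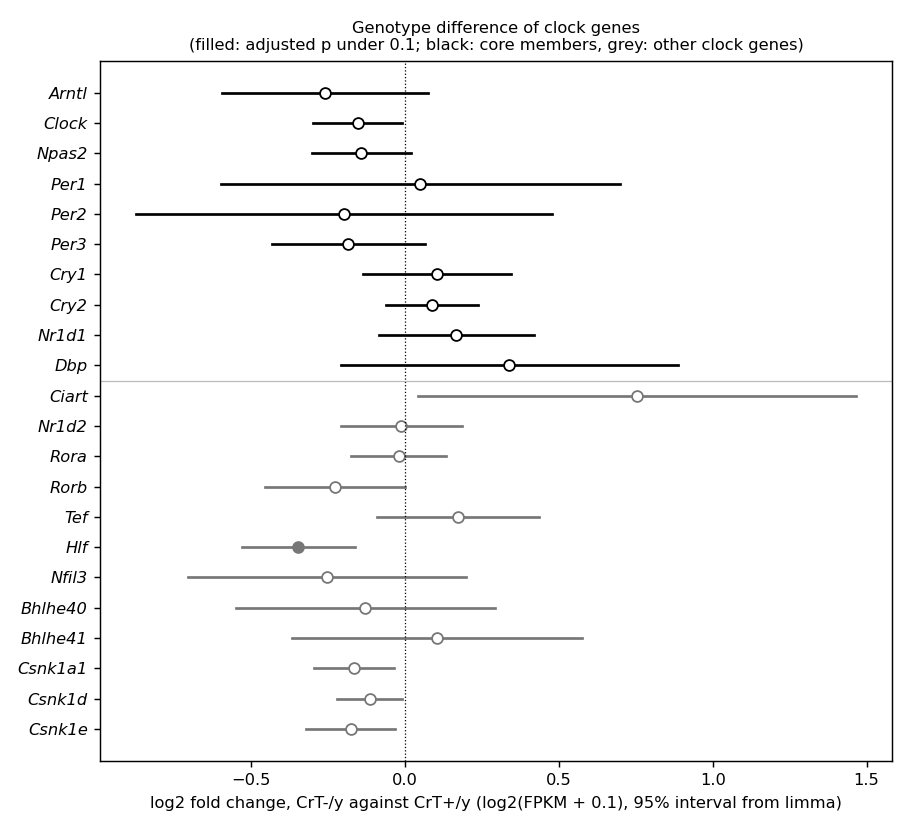
Log2 fold change of CrT-/y against CrT+/y (horizontal axis) with its 95% interval from limma, for the 10 core members (black) and 12 other clock genes (grey), a filled point marking an adjusted p under 0.1. Hlf, at -0.35, is the filled point, and the widest intervals among the members are those of Per2, Per1 and Dbp.

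By mean level over the 7 animals, in FPKM, the order was Nr1d1 (87.6), Cry2 (41.3), Dbp (39.0), Per1 (26.0), Npas2 (15.6), Clock (14.8), Arntl (11.7), Per3 (7.53), Cry1 (6.99) and Per2 (6.62). Nr1d1 lay above Cry2 in every animal with no overlap of their ranges. Each of the other neighbors in this order had overlapping ranges over the animals. Compared within an animal, Per1 lay above Npas2 and Clock above Arntl in all 7, and the remaining places were not separated.

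Several members varied widely between animals of the same genotype. In CrT-/y animals, the highest value was at least 1.5 times the lowest for 4 of 10 members (Arntl, Per1, Per2 and Dbp), against 6.67% of all tested genes. In CrT+/y animals this held for 2 of 10 (Per1 and Per2), against 9.98%. The SD of log2(FPKM + 0.1) among the 4 CrT-/y animals was 0.597 for Per2, 0.567 for Per1, 0.543 for Dbp and 0.313 for Arntl, where the median of all tested genes was 0.0829. These 4 SDs exceeded those of 99.3%, 99.2%, 99.0% and 96.1% of tested genes. Among the CrT+/y animals, Per1 and Per2 again had SDs above 95.8% and 95.4% of genes, but Arntl and Dbp had ordinary ones, at 0.0883 and 0.104 against a median of 0.132. A difference in spread between genotypes was not tested, with 4 and 3 animals.

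**Figure D3:**
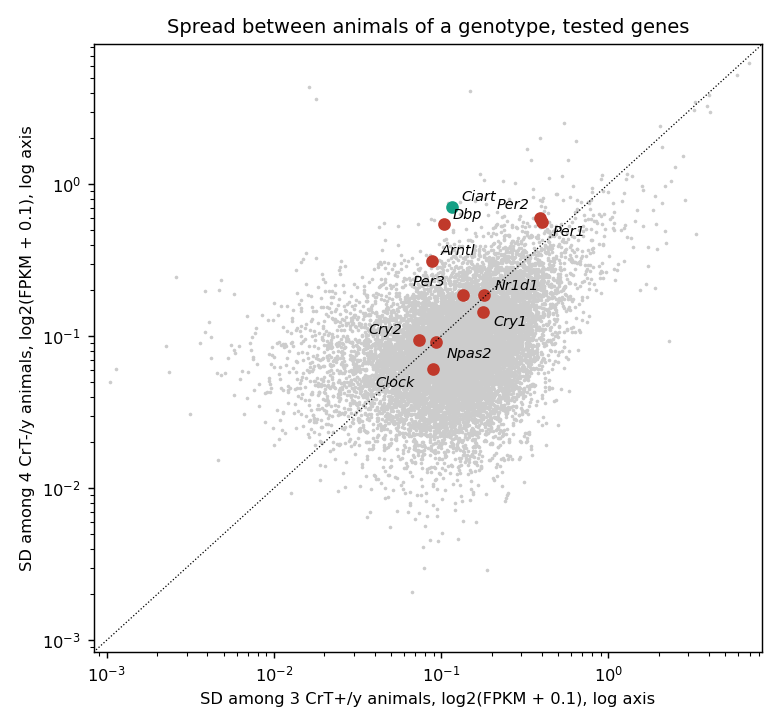
SD of log2(FPKM + 0.1) among the 4 CrT-/y animals (vertical, log axis) against that among the 3 CrT+/y animals (horizontal, log axis) for each tested gene (grey), the core members (red) and Ciart (green), with the dotted line where both are equal. Per1 and Per2 are spread in both genotypes, while Dbp (0.543 against 0.104), Arntl (0.313 against 0.0883) and Ciart (0.711 against 0.117) lie far above the line.

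A split of the CrT-/y animals, 1 and 2 against 0 and 3, recurred in all 10 members, with the activators on the opposite side. The order within each pair of animals differed between members. The split was narrow in Clock, Npas2 and Cry2, whose CrT-/y SDs were 0.0604, 0.0912 and 0.0947, against a median of 0.0829 over all tested genes. Animals 1 and 2 held the 2 highest CrT-/y values in 7 of 10 members (Per1, Per2, Per3, Cry1, Cry2, Nr1d1 and Dbp), a pattern that 17.6% of all tested genes had. They held the 2 lowest values in the other 3 members (Arntl, Clock and Npas2), a pattern of 19.2% of all tested genes. This split was noticed after the values were seen and is given as a description. Animal 1 was the highest of its group in 6 of 10 members, against 24.1% of all tested genes, and animal 2 in 1 of 10, Per1, against 22.0%. Among the CrT+/y animals, animal 2 was the highest in 6 of 10 members (Arntl, Clock, Per1, Per2, Cry1 and Cry2), against 28.9% of all tested genes, with activators and repressors on the same side. The median absolute log2 deviation of the members from their CrT-/y mean was 0.236 in animal 1 and 0.174 in animal 3, against 0.0536 and 0.0588 over all tested genes. In animal 2 it was 0.0669, against 0.0504.

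**Figure D4:**
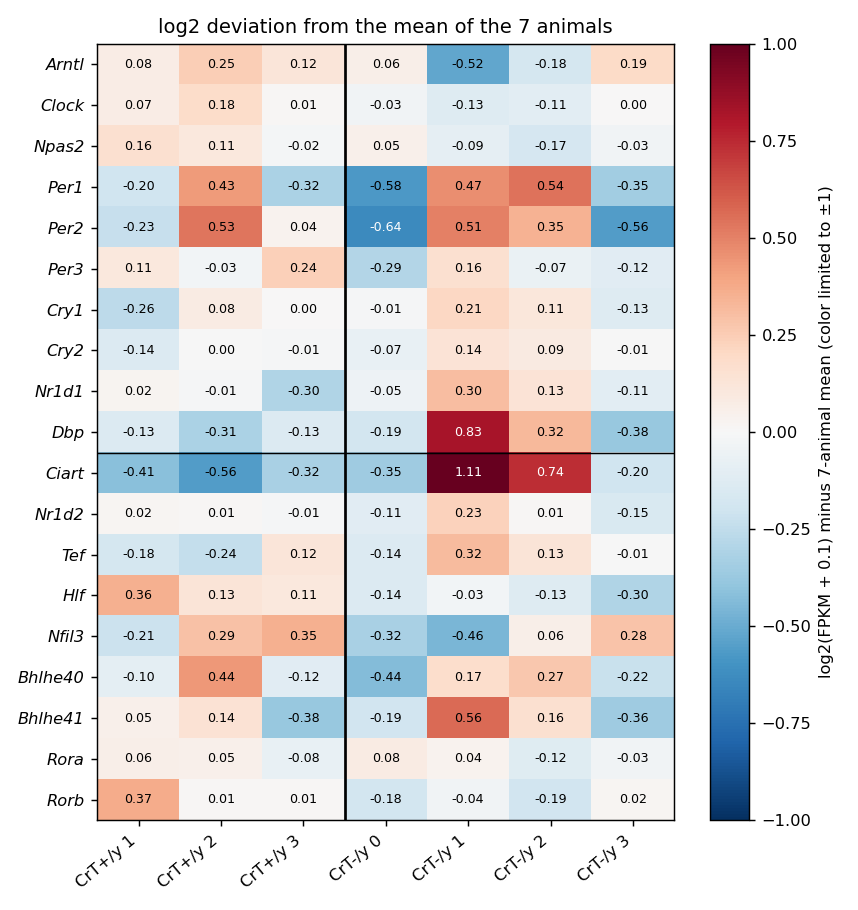
Log2(FPKM + 0.1) of each gene (rows, core members above the line) minus its mean over the 7 animals, for each animal (columns, CrT+/y left of the vertical line), red above and blue below the mean. In CrT-/y animal 1, Arntl is at -0.52 while Dbp is at 0.83 and Ciart at 1.11, and in CrT-/y animal 2 the same genes are at -0.18, 0.32 and 0.74.

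Ratios within an animal put the limbs side by side. They restate the values above with Arntl as the shared denominator, and add no separate evidence. The FPKM of Dbp divided by that of Arntl was 2.72, 8.28, 4.58 and 2.17 in CrT-/y animals 0 to 3 and 2.80, 2.19 and 2.70 in CrT+/y animals 1 to 3. The 5 other animals thus shared a narrow range, and CrT-/y animals 1 and 2 stood above it. Nr1d1 over Arntl ran the same way, at 13.4 and 9.35 in those animals and 5.59 to 7.25 in the other 5. Per1 over Arntl was 4.28 and 3.55 in them, 2.44 in CrT+/y animal 2 and 1.38 to 1.78 in the other 4.

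Among 31 other clock genes listed by role, 30 were tested and 1, Hlf, was called in limma, or 3.33% against the 10.1% of all tested genes, while 13 of 30 had an unadjusted p under 0.05, against 25.0% of all. Groups did not overlap in 30.0% of them, against 21.6% of all tested genes. Their median log2 fold change was -0.08. Hlf, a relative of DBP that binds the same D-boxes, had 57.4, 62.0, 57.7 and 51.3 FPKM in CrT-/y animals and 80.9, 69.2 and 68.0 FPKM in CrT+/y animals. It fell in CrT-/y, with groups that did not overlap and a log2 fold change of -0.35 (95% interval -0.53 to -0.16, adjusted p = 0.0558). The call was lost without any 1 of the CrT-/y animals or without CrT+/y animal 1, with adjusted p-values of 0.105 to 0.143. Its values in the CrT-/y animals still had animals 1 and 2 on top. Over the 30 other clock genes tested, these were the 2 highest CrT-/y animals in 7 (23.3%, against 17.6% of all tested genes). They were the 2 lowest in 4 of the 30 (13.3%, against 19.2%).

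Ciart, also called Chrono, a repressor of the ARNTL pair that is itself driven through E-boxes, was the most variable of the named clock genes. The stretch printed above was chosen for that reason and carried 3 E-boxes. The window of Dbp, also widely spread, held none of the elements sought. Ciart had 8.12, 22.5, 17.4 and 9.07 FPKM in CrT-/y animals and 7.78, 7.05 and 8.29 FPKM in CrT+/y animals. CrT-/y animals 1 and 2 stood more than 2 times above the CrT+/y animals, and CrT-/y animal 0 lay among them. The log2 fold change was 0.75 (95% interval 0.04 to 1.47, unadjusted p = 0.0400 and adjusted p = 0.182 in limma), and 0.49 without CrT-/y animal 1. The groups overlapped, and the exact two-sided permutation p was 0.171. Over Arntl, Ciart was at 2.80 and 1.71 in CrT-/y animals 1 and 2 and at 0.513 to 0.685 in the other 5.

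The rest of the second loop showed less of this. Nr1d2, the sister receptor of Nr1d1, had 30.1, 38.2, 32.8 and 29.3 FPKM in CrT-/y animals and 32.3 to 32.9 FPKM in CrT+/y animals, with a log2 fold change of -0.01. Rora and Rorb, receptors that activate Arntl, had log2 fold changes of -0.02 (adjusted p = 0.876) and -0.23 (adjusted p = 0.199). Nr1d2 and Rora turned to slightly above 0 under quantile, upper quartile or median scaling.

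Of the D-box factors, Tef had a log2 fold change of 0.17 (adjusted p = 0.384) and ranged from 76.5 to 105 FPKM in CrT-/y and from 71.6 to 91.5 FPKM in CrT+/y animals, with CrT-/y animal 1 the highest. Nfil3, which competes for the D-box as a repressor, was lowest in that same animal, at 2.49 FPKM against up to 4.22 FPKM in CrT-/y animal 3, and its log2 fold change was -0.25 (adjusted p = 0.463). Bhlhe40 and Bhlhe41, E-box repressors also called Dec1 and Dec2, had log2 fold changes of -0.13 (adjusted p = 0.704) and 0.10 (adjusted p = 0.788). Bhlhe40 followed Per1, at 52.2 and 55.7 FPKM in CrT-/y animals 1 and 2, 62.7 FPKM in CrT+/y animal 2 and 34.2 to 43.2 FPKM in the others.

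The 17 kinases, ligases and cofactors of PER and CRY, which set the stability of the proteins, had no call, 8 unadjusted p-values under 0.05 (25.0% of all tested genes) and groups without overlap in 8 genes, 5 lower and 3 higher (21.6% of all tested genes). Among these, the casein kinases that phosphorylate PER, named after their values were seen, had lower CrT-/y levels without overlap: Csnk1a1 at a log2 fold change of -0.16 (adjusted p = 0.127), Csnk1d at -0.12 (adjusted p = 0.174) and Csnk1e at -0.18 (adjusted p = 0.136). The 3 kinases were steady between CrT-/y animals, Csnk1e at 37.5 to 39.1 FPKM and Csnk1d at 36.7 to 38.6 FPKM, in contrast to Per1, Per2 and Dbp. All 3 were called in limma when CrT+/y animal 3 was left out (adjusted p = 0.0490, 0.0930 and 0.0231). That setting also raised the number of genes called over the whole table, as given for Clock and Npas2. Under upper quartile scaling their log2 fold changes were -0.10, -0.05 and -0.11 (adjusted p = 0.267, 0.501 and 0.270 in limma). None of the 3 was called under quantile or median scaling, and Csnk1e alone was called with array weights (adjusted p = 0.0744).

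Per1 and Per2 are also immediate early genes, so the other members of that class are given beside them. None of 13 immediate early genes was called in limma or had an unadjusted p under 0.05. The 3 with the smallest p were Btg2, Egr1 and Arc, with log2 fold changes of 0.50 (adjusted p = 0.247), -0.50 (adjusted p = 0.282) and -0.55 (adjusted p = 0.316). Egr1 had 110, 178, 214 and 128 FPKM in CrT-/y animals and 174, 331 and 174 FPKM in CrT+/y animals. CrT-/y animals 1 and 2 were the 2 highest of their group in 9 of 13 immediate early genes, CrT-/y animal 2 was the highest in all 13, and CrT+/y animal 2 was the highest CrT+/y animal in 6 of 13. In the rest of that list (Fos, Junb, Arc, Npas4, Dusp1, Ier2 and Btg2), CrT+/y animal 3 was the highest CrT+/y animal. Its Per1 was the lowest of that group (19.9 FPKM). The high Per1, Per2 and Bhlhe40 of CrT+/y animal 2 came with the highest Egr1 of the 7 animals, while its Dbp (30.1 FPKM) and Ciart (7.05 FPKM) were the lowest of its group and its Arntl (13.8 FPKM) the highest. In CrT-/y animal 1 these 3 genes stood the other way round, with Dbp and Ciart the highest of all 7 and Arntl the lowest, and Egr1 was at 178 FPKM. The part of the immediate early response in the Per1 and Per2 values was not tested.

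**Figure D5:**
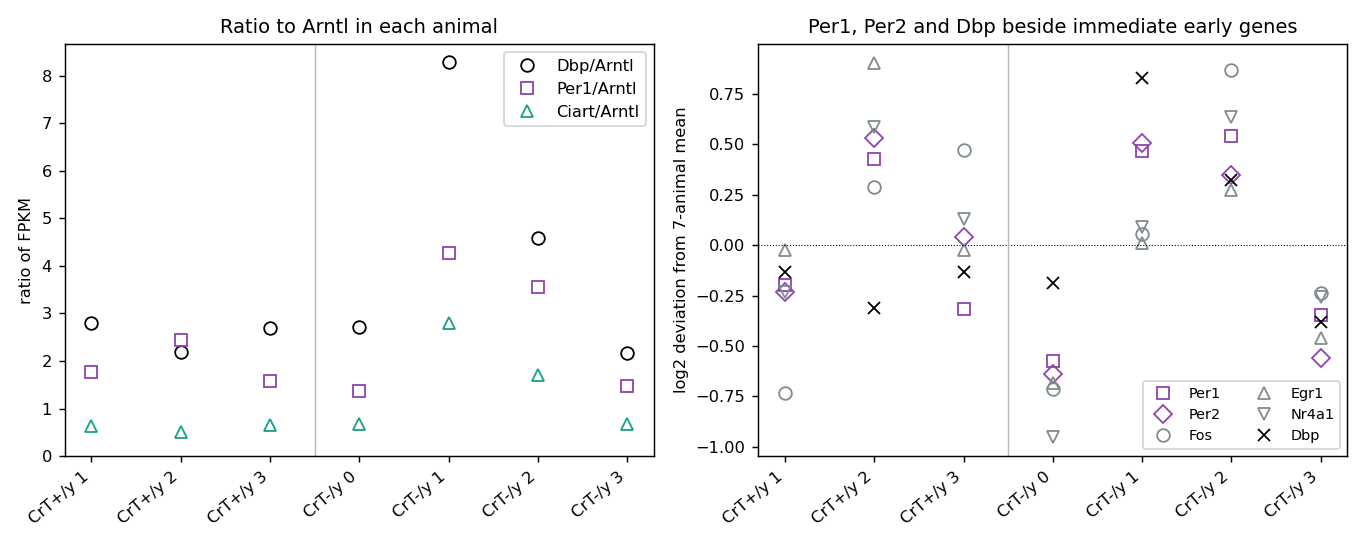
Left, the ratio of Dbp, Per1 and Ciart FPKM to Arntl FPKM in each animal; right, log2(FPKM + 0.1) of Per1, Per2, Dbp, Fos, Egr1 and Nr4a1 minus each gene's mean over the 7 animals. Dbp over Arntl is 8.28 and 4.58 in CrT-/y animals 1 and 2 and at most 2.80 in the others, and in CrT+/y animal 2 Per1, Per2 and Egr1 are above their mean while Dbp is below.

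Other inputs that reach Per genes through hormones and temperature were read in the same way. Of 9 tested glucocorticoid-responsive genes, 2 rose in CrT-/y, where 2.90% of all tested genes were called higher: Mt2 (log2 fold change 0.45, adjusted p = 0.0484) and Sgk1 (0.43, adjusted p = 0.0742), and Zbtb16, the next by p, was at -0.21 (adjusted p = 0.205). Of the 9, 5 had log2 fold changes below 0, as did 58.2% of all tested genes. Sgk1 was highest in CrT-/y animals 1 and 2 (37.9 and 37.5 FPKM against 28.9 and 27.6 FPKM). These were the 2 highest CrT-/y animals in 4 of 9 genes (Sgk1, Tsc22d3, Zbtb16 and Errfi1), against 17.6% of all tested genes. They were the 2 lowest in 1 of 9 (Pdk4), against 19.2%. Of 8 temperature-responsive genes, 6 were called, Cirbp and Rbm3 higher and Hsph1, Hspa1b, Hspb1 and Hspa8 lower, against 10.1% of all tested genes called (2.90% higher and 7.25% lower). Their smallest p-values belonged to Hsph1 (log2 fold change -0.55, adjusted p = 0.0253), Cirbp (0.81, adjusted p = 0.0303) and Rbm3 (0.84, adjusted p = 0.0371). Cirbp, whose product binds clock transcripts, was at 108, 102, 94.1 and 83.7 FPKM in CrT-/y animals, and animals 1 and 2 were neither its 2 highest nor its 2 lowest. They were the 2 lowest CrT-/y animals in 4 of 8 genes of this list (Hspa1a, Hspa1b, Hsph1 and Hspa8), against 19.2% of all tested genes, and the 2 highest in 1 of 8 (Rbm3, at 129 and 128 FPKM), against 17.6%. The part of these inputs in the clock values was not tested.

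The transcripts closest to the most variable member of each limb were found by the mean absolute difference of log2 deviations over the 7 animals, where 0 means an identical profile. The nearest of 12988 tested genes lie far below the median distance by selection, so the distances are a description only. For Arntl these were 3110056K07Rik (0.0515), Fdxacb1 (0.0671) and Rabl2 (0.0732), each lowest in CrT-/y animal 1, and the median distance of tested genes was 0.215. For Per2 they were Mterf1a (0.0957), Sec14l5 (0.138) and Tiparp (0.143), against a median of 0.426. For Dbp they were Me3 (0.145), Tmem181c-ps (0.146) and Folh1 (0.149), against 0.348, and the second of these is annotated by its symbol as a pseudogene, whose reads could belong to its parent gene. Among the members, the closest pairs were Clock and Npas2 (0.0580) and Cry1 and Cry2 (0.0697).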

How the data were processed

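RNA of the cerebral cortex of 4 CrT-/y and 3 CrT+/y males was sequenced as paired-end libraries, 1 per animal. The labels gave each animal's genotype and number. The authors aligned reads to mm10 with the Tuxedo protocol (TopHat and Cufflinks, and Bowtie and Cuffnorm in the submitters' processing notes), kept unique alignments to known exons or junctions, and deposited FPKM per gene and animal. Versions and the annotation are not given in the sources used here. FPKM are not counts, so no count model was used and intervals cover the spread between animals. In limma each gene's variance is moderated by a trend over all genes, so the interval of a highly variable gene can understate its spread.

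Here, 0.1 was added before log2, genes averaging 1 FPKM or more were kept, and genotype was tested with limma 3.58.1 (R 4.3.3, variance trend, two-sided, Benjamini-Hochberg over all 12988 genes). A call is an adjusted p under 0.1. Folds of weak genes are understated by the added 0.1. Exact permutation tests used the 35 splits, from Python 3.11.15 and scipy 1.17.1, and the fit was tested on simulated data. The members and all lists were chosen with earlier results of these data known. Named genes are the members, Slc6a8, 9 clock genes chosen by role and any called, the 3 smallest p-values of each input list, and the 3 nearest transcripts of the most variable member of each role. Genes named outside this rule are cell type and region markers and those said to be named after their values were seen. Positions come from GENCODE M21 of GRCm38 and promoters from RefSeq. Of the table's symbols, 23318 matched directly, 665 by synonym and 363 not at all. The alternatives changed the pseudocount, filter, scaling, length trend, variance model, replicate block and animals.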

Additional observations from a re-analysis of the deposited data

How the results depend on the processing

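No core member was called under any alternative except without CrT+/y replicate 3, so leaving out 1 animal gave 0 to 2 members called. Among the other clock genes, 1 was called in the main setting, 3 under upper quartile scaling, 2 with the length trend taken out, 4 with array weights and 0 to 7 with 1 animal left out (7 without CrT+/y replicate 3). Over all genes, 1318 were called, 377 higher and 941 lower (28.6% higher). The share called higher was 48.8% under quantile normalization, 61.5% under upper quartile scaling, 48.2% under median centring and 46.8% with the length trend taken out. Without a filter on low values 730 genes were called, and with 1 animal left out 64 (without CrT-/y replicate 1) to 3733 (without CrT+/y replicate 3). The cause was not tested.

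Animals with the same replicate number did not deviate alike (r of deviations from the group means -0.0781, 0.0460 and -0.0510 for numbers 1 to 3, and CrT-/y animal 0 has no partner). The labels do not say what a number shares, so a shared litter or batch cannot be judged from these values. With a replicate block, 576 genes, 2 other clock genes and 0 members were called, Ciart among the 2 (adjusted p = 0.0969 in limma), and Nr1d2 turned to 0.0243.

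Fold changes near 0 changed sign in 6 genes. Nr1d2 was at 0.0513 under quantile normalization, 0.0501 under upper quartile scaling, 0.0251 under median centring and 0.0422 with the length trend taken out, and Rora at 0.0197, 0.0408, 0.0159 and 0.0520. With 1 animal left out, the log2 fold change of Per1 ran from -0.12 to 0.28, Per2 from -0.39 to 0.0130, Nr1d2 from -0.0911 to 0.0361, Rora from -0.0652 to 0.0162, Bhlhe40 from -0.24 to 0.0525 and Bhlhe41 from -0.0683 to 0.24.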
